A study of Drosophila melanogaster with 4 samples.

Results

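The genes scribbler (sbb), taranis (tara), corto, jing, Tet and brain tumor (brat) encode 6 regulators of development whose neighbourhoods held many or strong anti-GFP CUT&RUN regions in wing discs with GFP-tagged Osa. They were chosen by the called peaks themselves: their spans or flanks held many or strong regions found in both Osa-GFP libraries with no yw control peak. The genes were then matched by symbol in a RefSeq gene table. They are 6 of 13922 protein-coding genes on the 6 main chromosome arms (X, 4 and both arms of 2 and 3). Each gene was examined over its span and 15 kb on either side, called its window here. Because of that choice, the number and strength of Osa-GFP regions at them are a description and carry no test.

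The study compared Osa-GFP female larvae with yw female larvae, 2 libraries per genotype. Both genotypes were wandering third-instar larvae raised at 25 °C, and 20 to 22 wing discs went into each replicate. All 4 libraries used the same rabbit anti-GFP antibody and came from the supernatant fraction of CUT&RUN, in which an antibody-tethered nuclease cuts out the DNA around the antibody's target. The yw larvae carry no GFP, so a peak there marks DNA released without the tagged protein. The labels do not say how GFP was joined to Osa, which cells made the fusion, or whether replicates came from separate crosses. Peak lists give no RNA level, so the labelled tissue could not be set against marker genes.

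Osa is the large ARID-domain subunit that defines the BAP form of the SWI/SNF (Brahma) nucleosome remodeler, which uses ATP to slide or evict nucleosomes at promoters and enhancers. Long developmental genes of flies often carry their enhancers in introns and in the DNA beside the gene. Of the 6 products, Scribbler (also called Brakeless) is a nuclear co-repressor, Taranis belongs to the Trithorax group, and Corto is a chromodomain protein that acts with both Polycomb and Trithorax proteins. Jing is a zinc finger protein related to mammalian AEBP2, a Polycomb cofactor. Tet is the fly member of the TET dioxygenases, which oxidise methyl groups on nucleic acids in mammals. Brat is an RNA-binding TRIM-NHL protein that represses translation and restrains growth.

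The depth of a library is given by the fragments that cover a position on average, recovered from the authors' peak folds. With replicate 1 before replicate 2, as in every pair of library values below, it was 0.472 and 0.460 in Osa-GFP, against 0.120 and 0.481 in yw. The yw replicate 2 library is thus the control of like depth, and the absence of a peak in yw replicate 1 says little. A peak's height is given below as summit fragments, the number of fragments over its highest position. The lowest peaks had 4 summit fragments in both Osa-GFP libraries and in yw replicate 2, and 3 in yw replicate 1.

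The windows of the 6 genes add up to 562 kb, which is 0.42% of the 6 arms, and held 115 and 103 Osa-GFP peaks, against 15 and 66 yw peaks. As a share of each library's own list this was 1.98% and 2.07% in the Osa-GFP libraries, against 1.94% and 1.46% in the yw libraries. The windows were therefore rich in peaks of all 4 libraries for their length, not of the Osa-GFP libraries alone. Merging peaks that overlapped gave 135 regions. Of these, 43 were found in both Osa-GFP libraries with no yw peak and are called Osa-GFP-specific. A further 40 were found in both Osa-GFP libraries and in 1 or both of the yw libraries and are called shared. Another 40 were found in a single Osa-GFP library, and 12 held yw peaks alone.

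Regions with a yw peak were as much a feature of these loci as regions without. Among regions of both Osa-GFP libraries, 40 of 83 also held a yw peak, 48.2% (95% Wilson interval 37.8% to 58.8%), beside 47.2% (45.5% to 48.9%) of the 3344 such regions of the genome. In the genome as a whole 18.4% of 9599 merged regions were Osa-GFP-specific and 16.4% were shared. Such intervals cover counting error only: amplified fragments and adjoining regions are not independent of each other. The counts turn on the deep control: without yw replicate 2, 74 regions were specific and 10 were shared. Without Osa-GFP replicate 2, where a single Osa-GFP library sufficed, 68 were specific.

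All 6 genes had 5 or more Osa-GFP-specific regions in their window, which 0.869% of all protein-coding genes had. That is what the choice of the genes asked for, and nothing is read from it. At least 1 specific region was present at 21.7% of genes, and at least 1 shared region at 23.9%. sbb had 10 specific regions, a count that 8 genes reached with sbb among them, jing had 8, Tet and brat had 7 each, tara had 6 and corto had 5. Without yw replicate 2 these counts were 21 at sbb, 13 at jing, 12 at Tet, 11 at brat, 11 at tara and 6 at corto. Without Osa-GFP replicate 2 they were 17 at sbb and 14 at both jing and Tet, and without Osa-GFP replicate 1 sbb had 17. Per length of window, which holds the same 15 kb flanks at every gene, the order was another one. corto, with a span of 9.29 kb, had 1.27 specific regions per 10 kb of window, and 0.632% of genes were at or above it. tara, brat and sbb followed with 0.928, 0.922 and 0.917 per 10 kb. Tet had 0.569 and jing 0.534, levels that 6.0% and 6.56% of genes reached. This order rests on the flanks: in the span alone, sbb and jing had 8 specific regions each, and Tet and brat 7 each. There tara had 2 and corto 1.

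**Figure D1:**
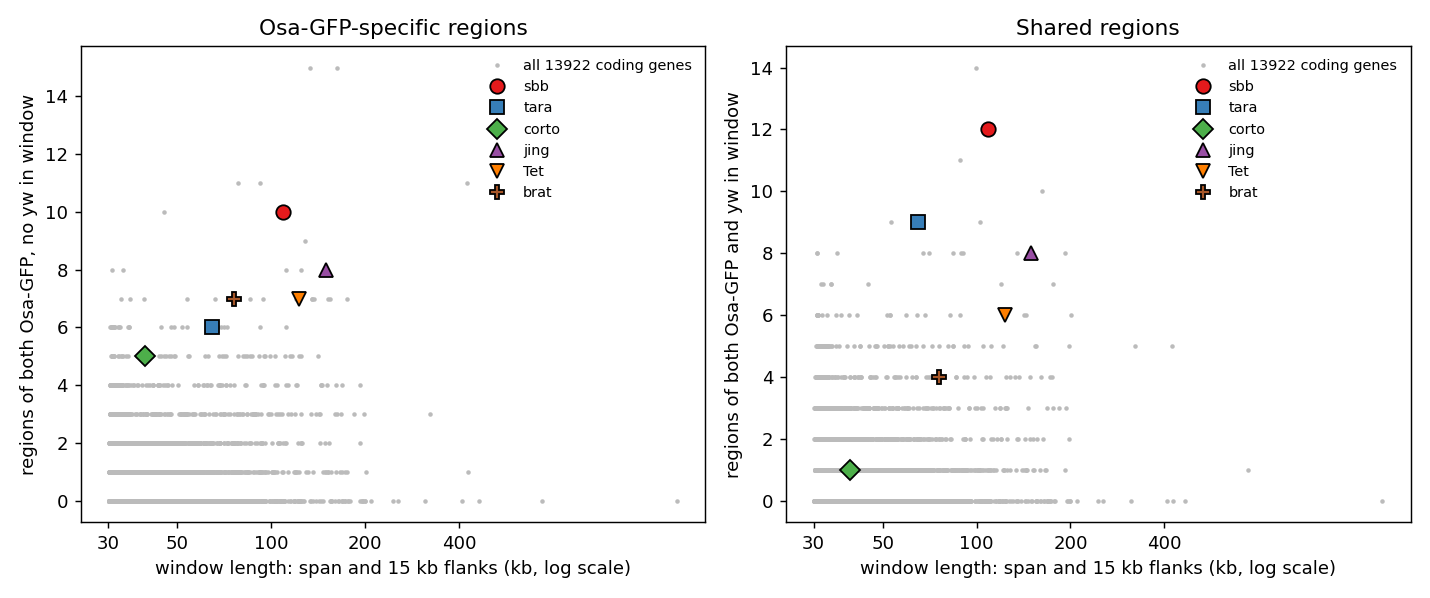
Number of Osa-GFP-specific regions (left) and of shared regions (right) in the window of each protein-coding gene, against window length in kb on a log scale. Grey points are all 13922 genes and coloured symbols the 6 genes. sbb stands at 10 specific and 12 shared regions, and corto at 5 specific and 1 shared region in a window of 39.3 kb.

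**Figure D2:**
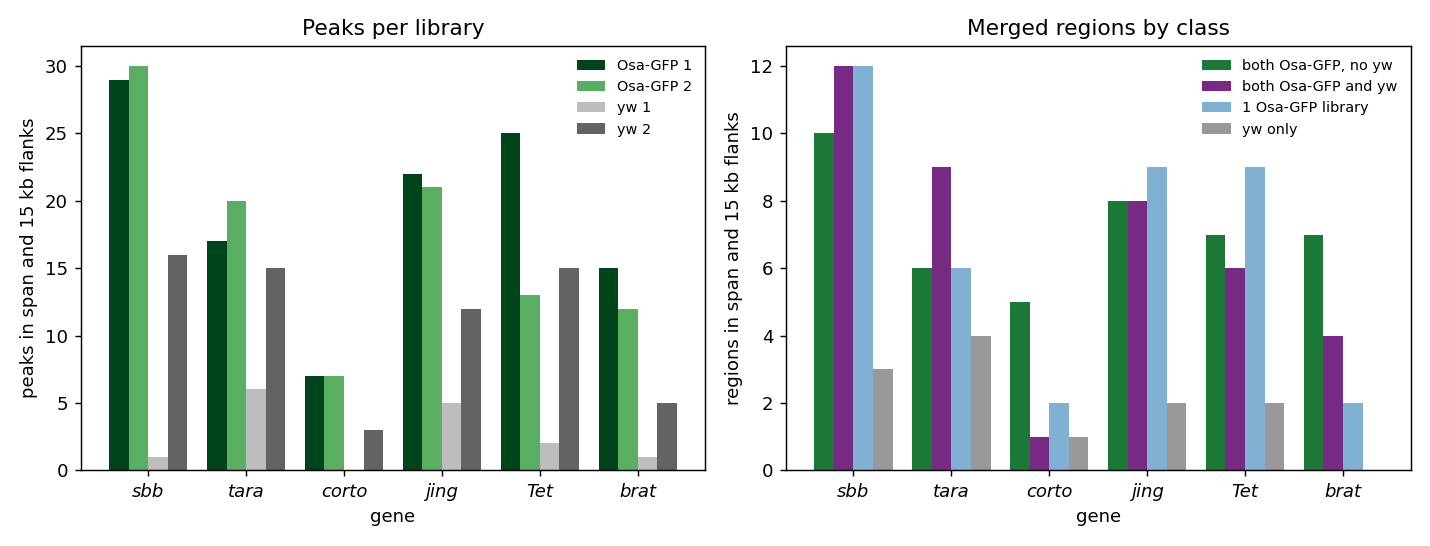
Left, peaks of each library in the window of each gene. Right, merged regions of each window by class. Tet has 25 and 13 Osa-GFP peaks, against 2 and 15 yw peaks, the widest gap between Osa-GFP replicates among the 6 genes. brat has no yw-only region.

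The sbb gene lies on 2R at 18278198 to 18357296, a span of 79.1 kb. Its window held 29 and 30 Osa-GFP peaks, against 1 and 16 yw peaks. They formed 10 specific and 12 shared regions. The highest specific region, at 18304181 to 18305337, had 62 and 46 summit fragments in the Osa-GFP libraries (exact 95% Poisson intervals 47.5 to 79.5 and 33.7 to 61.4) and ranked 28 of 5836 and 30 of 5009 in their lists by the caller's fold. It was centred 26561 bp inside the gene, counted from the lower-coordinate end of the span, and 1480 bp from the nearest shared region.

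That shared neighbour of the sbb region, at 18306818 to 18308301, was higher still. It had 73 and 62 Osa-GFP summit fragments, against 12 in yw replicate 2, and its Osa-GFP summits fell on the same base pair in both replicates. The second specific region of sbb, at 18291302 to 18292579, had 35 summit fragments in each Osa-GFP library and lay inside CG14502, a gene nested in sbb. The third, at 18334821 to 18335895, had 30 and 25. It ended 36 bp from a yw-only region, at 18335932 to 18336083, which had 4 summit fragments in yw replicate 2. The other 7 specific regions had 6 to 22 summit fragments in Osa-GFP replicate 1 and 6 to 18 in replicate 2.

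The ends of the sbb locus differed from each other. At the higher-coordinate end, 2 neighbouring shared regions lay at the end of the span, the outer one across it, with 16 and 16 Osa-GFP summit fragments (10 in yw replicate 2) in the inner one and 20 and 15 (8 in yw replicate 2) in the outer one. At the lower-coordinate end, no library had a peak over 17.3 kb that spans the end itself and the neighbouring genes pen-2 and Ote. Of the 22 regions of both Osa-GFP libraries, 6 fell between 55.2 and 64.7 kb into the gene, the densest 10 kb of the locus. In each of the 12 shared regions yw replicate 2 had fewer summit fragments (4 to 12) than either Osa-GFP library.

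The tara gene lies on 3R at 16225651 to 16260329, a span of 34.7 kb, and held 17 and 20 peaks of the Osa-GFP libraries, against 6 and 15 peaks of the yw libraries. It was the locus with the most shared regions for its length, 1.39 per 10 kb of window, a level that 0.352% of genes reached. The highest specific region, at 16252720 to 16253537, had 49 and 45 Osa-GFP summit fragments (36.3 to 64.8 and 32.8 to 60.2, exact 95% Poisson) and ranked 66 and 34 in their lists. Its summits fell on the same base pair in both replicates. It ended 151 bp from the highest shared region, at 16253689 to 16255504, which had 44 and 34 summit fragments in the Osa-GFP libraries and 10 and 16 in yw replicates 1 and 2. The yw replicate 1 library had the lowest depth of the libraries, and its peak there ranked 57 in its list.

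Only 2 of the 6 specific regions of tara were inside the gene. The other 4 were centred 11384 to 15239 bp beyond its lower-coordinate end, where no protein-coding gene lies within the window. The strongest of these, at 16211176 to 16211554, had 28 and 20 summit fragments. The outermost, at 16210122 to 16210703 with 17 and 15, only overlapped the edge of the window. With flanks of 5 kb tara had 2 specific regions. Inside the gene the control peak was the taller one at 1 site: at 16234113 to 16234754 there were 21 and 20 summit fragments in the Osa-GFP libraries and 33 in yw replicate 2. In 3 of the 9 shared regions of tara, yw replicate 2 stood below both Osa-GFP libraries.

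The corto gene is the short member, on 3R at 5077779 to 5087072. Its window held no other protein-coding gene, and 7 and 7 peaks of the Osa-GFP libraries, against 0 and 3 peaks of the yw libraries. A single specific region lay inside the gene, at 5080446 to 5080850, with 17 and 18 summit fragments in the Osa-GFP libraries. The other 4 lay beyond the higher-coordinate end, centred 2627, 3434, 4408 and 10338 bp from it, with 9 to 12 summit fragments in replicate 1 and 5 to 12 in replicate 2. The end itself carried the shared region of the locus, at 5087059 to 5087387, with 13 and 15 summit fragments in the Osa-GFP libraries and 18 in yw replicate 2. With the span alone, corto kept 1 specific region.

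None of the corto regions was among the strongest of the lists. The region inside the gene ranked 910 and 520, and the strongest of the other 4, at 5091240 to 5091720, ranked 1797 and 1181. The highest specific region of corto, like that of Tet below, was thus low beside those of sbb and tara. Median summit fragments of specific regions were 11 and 12 at corto and 10 and 8 at Tet, beside 10 and 8 over the genome.

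The jing gene lies on 2R at 6502006 to 6621792, and its span of 120 kb made it the longest of the 6. Its window held 22 and 21 peaks of the Osa-GFP libraries, against 5 and 12 peaks of the yw libraries. All 8 specific regions lay inside the gene, spread from 9763 to 111167 bp from its lower-coordinate end. The highest pair were neighbours. The region at 6529733 to 6530594 had 36 and 26 summit fragments in the Osa-GFP libraries, and the one at 6530960 to 6531295 had 19 and 22. A pair of regions tied for the third place, the one at 6595467 to 6596055 with 20 and 14 and the one at 6561684 to 6562230 with 19 and 14. The last of these lay 165 bp from the highest shared region of jing, at 6562396 to 6563329, which had 38 and 40 in the Osa-GFP libraries and 7 in yw replicate 2.

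At jing the control also gave the taller peak at some sites. Of its 8 shared regions, 3 had more summit fragments in yw replicate 2 than in either Osa-GFP library. At 6548401 to 6549592 there were 23 and 20 in the Osa-GFP libraries and 45 in yw replicate 2, and at 6552861 to 6553335 there were 19 and 15 in the Osa-GFP libraries and 28 in yw replicate 2. The other of these 3, and both other shared regions of the higher-coordinate flank, overlapped Vha16-1, a neighbouring gene for a subunit of the vacuolar proton pump. A stretch of 22.8 kb inside jing, from 70.7 to 93.5 kb, had no peak of any library.

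The Tet gene lies on 3L at 2786207 to 2879158, with a span of 92952 bp. It is the locus where the Osa-GFP replicates differed most, with 25 and 13 peaks, against 2 and 15 peaks in the yw libraries. Its 7 specific regions were all inside the gene, with 8 to 15 summit fragments in Osa-GFP replicate 1 and 6 to 14 in replicate 2. The highest, at 2831561 to 2832113, had 15 and 14 and ranked 1116 and 897. The second and the third, at 2847331 to 2848239 and 2838476 to 2838771, had 12 and 10 in replicate 1 and 10 each in replicate 2.

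The tall regions of Tet were shared with the control. At 2823350 to 2825175 there were 51 and 40 Osa-GFP summit fragments, against 12 and 36 in the yw libraries. At 2833639 to 2834107 there were 51 and 56 in the Osa-GFP libraries and 11 in yw replicate 2. These regions tie on the worse of their ranks, at 59, yet the control is close to the Osa-GFP libraries at the first and far below them at the second. The lower-coordinate flank of Tet, which holds other genes, and the first 15.3 kb of the gene had no peak of any library.

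The brat gene lies on 2L at 19133816 to 19179758, a span of 45.9 kb, and held 15 and 12 peaks of the Osa-GFP libraries, against 1 and 5 peaks of the yw libraries. All 13 regions of the window were inside the gene, and none was yw-only. The flanks, with 13 other protein-coding genes touching the window, held no region. The highest specific region, at 19141450 to 19141772, had 27 summit fragments in each Osa-GFP library (17.8 to 39.3, exact 95% Poisson) and ranked 351 and 206. The next were at 19143735 to 19144242 with 23 and 14, and at 19142160 to 19142563 with 20 and 12. The remaining 4 had 6 to 12 in replicate 1 and 4 to 7 in replicate 2.

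These brat regions belonged to a dense group. Of the 11 regions of both Osa-GFP libraries at brat, 6 were centred between 2.91 and 10.2 kb from the lower-coordinate end. The group opened with the highest shared region, at 19136087 to 19137361, which had 49 and 35 summit fragments in the Osa-GFP libraries and 15 in yw replicate 2. From 29.9 kb into the gene to the far edge of the window, 31.0 kb had no peak of any library.

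**Figure D3:**
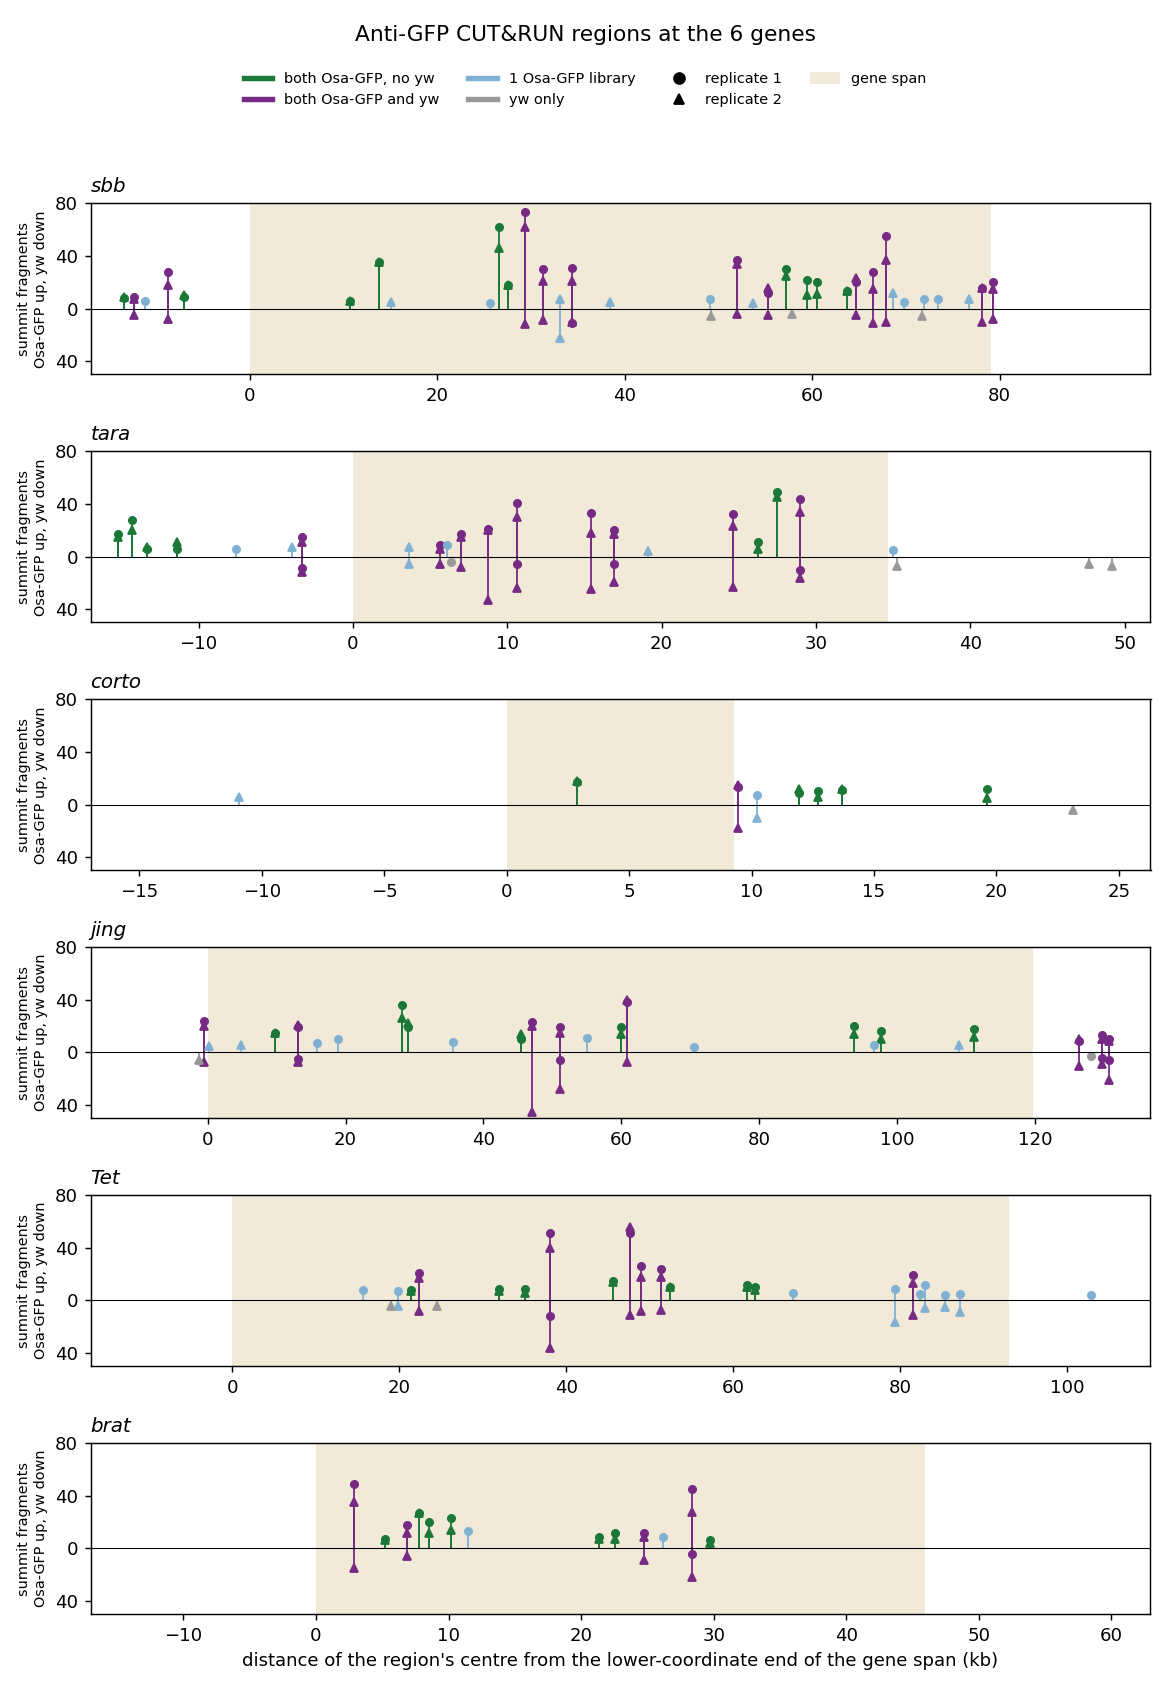
Summit fragments of each region against the distance of its centre from the lower-coordinate end of the gene span, in kb, with 1 panel per gene and the span shaded. Osa-GFP libraries point up and yw libraries down, replicate 1 as circles and replicate 2 as triangles, coloured by class of region. All brat regions lie inside the shaded span, 4 of the 5 specific regions of corto lie beyond its higher-coordinate end, and 4 of the 6 of tara lie beyond its lower-coordinate end.

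Over the 6 genes, 33 of the 43 specific regions were centred inside the span of the gene, 76.7% (62.3% to 86.8%, Wilson). The spans made up 68.0% of the summed windows, a value inside that interval. Of all 1765 specific regions, 60.8% (58.6% to 63.1%) were centred inside the span of any protein-coding gene. Few lay at gene ends. Of the 43, 2 had their centre 500 bp or less from an end of any protein-coding gene, 4.65% (1.28% to 15.5%), beside 10.4% (9.08% to 11.9%) of all 1765 specific regions. The intervals of the genes and of the genome met. The 2 regions were the one at an end of CG14502 inside sbb and the one 308 bp from an end of CG15233 inside jing. The median distance to the nearest gene end was 9017 bp at the 6 genes and 5935 bp over all specific regions. The spans ran from 9.29 kb at corto to 120 kb at jing, and the part of gene length in this distance was not tested.

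The Osa-GFP replicates placed their summits close together. At the 43 specific regions the median distance between the strongest summit of replicate 1 and that of replicate 2 was 39 bp, with a range of 0 to 440 bp, and 25 of 43 were within 50 bp. This was 58.1% (43.3% to 71.6%), beside 46.5% (44.1% to 48.8%) of all 1765 specific regions, whose median was 57 bp. The regions of the 6 genes were also the taller ones, and the part of height in the distance was not tested. Specific regions had a median of 13 and 12 summit fragments in replicates 1 and 2 at the 6 genes, and of 10 and 8 over the genome. By gene the median summit distance ran from 13 bp at tara to 65 bp at Tet.

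Heights of the replicates moved together across regions. Over the 83 regions of both Osa-GFP libraries at the 6 genes, Pearson's r of log2 summit fragments was 0.91 and Spearman's rho was 0.89, beside 0.83 and 0.78 over the 3344 such regions of the genome. These values describe regions, which share their libraries and a floor of 4 fragments, and carry no p. Replicate 1 was the higher in 59 regions, replicate 2 in 16, and they were equal in 8. The median ratio of replicate 1 to replicate 2 was 1.27 at the 6 genes and 1.18 over the genome, with near-equal depth. At corto alone among the 6 genes replicate 2 was the higher in most regions, in 4 of 6.

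**Figure D4:**
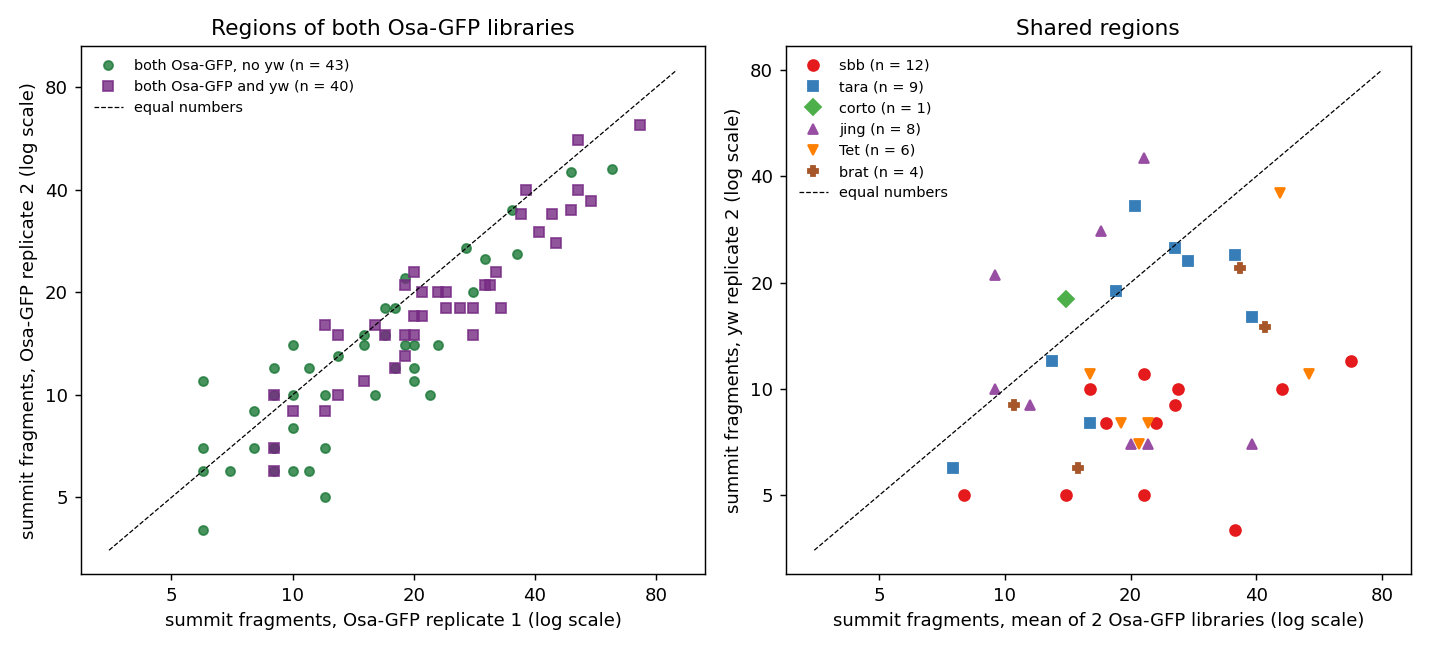
Left, summit fragments of Osa-GFP replicate 2 against replicate 1 at the 43 specific and 40 shared regions, on log axes, with a dashed line of equality. Right, summit fragments of yw replicate 2 against the mean of the Osa-GFP libraries at the 40 shared regions, coloured by gene. All 12 shared regions of sbb lie below the line, and 4 of the 8 of jing lie above it, 3 of which are also above each Osa-GFP library taken alone.

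A shared region need not be equally high with and without GFP. All 40 shared regions at the 6 genes had a peak of yw replicate 2, and 11 also had one of yw replicate 1. Their median was 22 and 18 Osa-GFP summit fragments, against 10 in yw replicate 2. Over the shared regions of the genome it was 15 and 12, against 9. The genes were picked for many or strong Osa-GFP regions, so nothing particular to them is read from these heights. In 28 of 40, 70.0% (54.6% to 81.9%, Wilson), yw replicate 2 stood below both Osa-GFP libraries, beside 59.9% (57.4% to 62.3%) of the 1550 such regions of the genome. In 5 of 40, 12.5% (5.46% to 26.1%), it stood above both, beside 23.1% (21.1% to 25.3%). The intervals of the genes and of the genome met in both cases. Of those 5 regions, jing held 3, tara 1 and corto 1, and the one at the higher-coordinate end of the jing window overlapped Vha16-1.

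Counts over shared regions alone are given per gene as values, and no difference between genes was tested. The counts are small, and a tie or a few fragments placed some regions. The tara region at 16249662 to 16250860 had 32 and 23 in the Osa-GFP libraries and 23 in yw replicate 2. yw replicate 2 was below both Osa-GFP libraries in 12 of 12 shared regions at sbb, in 6 of 6 at Tet and in 3 of 4 at brat. It was so in 4 of 8 at jing, 3 of 9 at tara and 0 of 1 at corto. Regions of a single Osa-GFP library are outside these counts, and yw replicate 2 was the taller at some of them. The sbb region at 18310976 to 18311590 had 7 summit fragments in Osa-GFP replicate 2 and 22 in yw replicate 2. The Tet region at 2865221 to 2865941 had 9 in Osa-GFP replicate 1 and 16 in yw replicate 2. At 2868840 to 2869453 in Tet these values were 12 and 6. Exact 95% Poisson intervals of the Osa-GFP and yw values met at each of these single-library sites. With 2 libraries against 2, the smallest two-sided exact permutation p is 0.33, so that test cannot pass 0.05, and no test of single regions between the genotypes was run.

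Specific and shared regions lay close beside each other at these genes. Of the 43 specific regions, 14 had a shared region within 1 kb, 32.6% (20.5% to 47.5%), beside 287 of 1765, 16.3% (14.6% to 18.1%), in the genome. Any region with a yw peak lay within 1 kb of 14 of the 43 as well, beside 401 of 1765, 22.7% (20.8% to 24.7%). The intervals of the genes and of the genome met for this wider measure. The median distance to the nearest shared region was 2150 bp at the 6 genes and 11047 bp over all specific regions. Specific regions with a shared region within 1 kb numbered 5 at sbb, 3 at tara and 2 each at jing, Tet and brat, and corto had none. The genes were picked where regions are dense, so nothing particular to them is read from this distance. When peaks within 500 bp of each other were merged, the 43 specific regions became 26.

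Genes of like roles were listed by role, with earlier results of these data known. The 6 genes were picked for many specific regions, so counts at the listed genes are given as values and are not set against theirs. The lists named 53 genes, of which 52 were matched, and 21.7% of all protein-coding genes had a specific region in their window. Of 11 other Trithorax group genes 4 had one: trx, a histone methyltransferase gene, had 3, osa itself and the Mediator gene skd had 2 each, and the GAGA factor gene Trl had 1. Of 16 other Polycomb and Polycomb-and-Trithorax genes 7 had one, led by Psc, a subunit of Polycomb repressive complex PRC1, and the transcription factor gene grh with 4 each and psq with 3. Psc and its neighbour Su(z)2 lie near each other, and their windows overlap.

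Among TRIM-NHL genes and translational repressors, listed together, 2 of 5 other genes had a specific region, pum and AGO1 with 1 each. Among genes for methyl marks on DNA and RNA, 1 of 7 had one, Mettl14 with 1. Among co-repressors, 4 of 7 had one, Smr with 2 and gro, ebi and HDAC1 with 1 each. The median number of specific regions was 0 in the first 4 lists and 1 among the co-repressors, without the 6 genes, and 0 over all protein-coding genes. Median windows with the 6 genes included ran from 34.3 to 53.8 kb in the lists, beside 32.2 kb over all genes. Lists were described and not tested.

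The genes most alike were found from the 4 peak counts per window alone, on a log2(count + 1) scale, as the shortest Euclidean distance over the 4 libraries. For sbb they were the T-box gene bi at a distance of 0.80 (23 and 18 Osa-GFP peaks, against 1 and 14 yw peaks) and pyd at 0.99. For tara they were Tlk at 0.31 and psq at 0.57, and for jing the cell cycle gene E2f1 at 0.48 and again Tlk at 0.54. CG32365 matched the counts of corto exactly, and Cpsf160 followed at 0.17. pyd at 0.62 and SKIP at 0.74 were nearest to Tet, and Svil and CG44174 were nearest to brat, both at 0.24. Of the 6 genes, sbb was thus the farthest from its nearest match.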

How the data were processed

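Peak lists from 4 anti-GFP CUT&RUN libraries (Osa-GFP and yw, replicates 1 and 2) were analysed. The submitters' processing notes name build dm6 and MACS2 2.1.2, with Bowtie2 2.3.4.1, deepTools 2.4.1, Picard 2.2.4 and SAMtools 1.10. Peak names show calling per library, and the calling threshold is not given in the sources used here. Each deposited fold is a ratio of summit fragments to background, made by the authors' caller. The deposited p and q are −log10 values; −log10 q was used only for thresholds.

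Folds were whole multiples of 1 step in each list (100% of peaks at a tolerance of 0.01), read as (fragments + 1)/(background + 1), which gave summit fragments and depth. Fragments were not compared with read counts. Peaks on 6 arms were merged where they overlapped by 1 bp or more. Region classes, ranks, distances and intervals were computed with Python 3.11.15, pandas 2.3.3, NumPy 2.4.6 and SciPy 1.17.1. Merging was tested on simulated regions set far apart, which cannot show how it treats close neighbours. Gene spans came from a RefSeq table of 17872 rows on the same release, without strand, exons or sequence. The planned look at DNA under the summits was not run, since no sequence was used here.

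The genes, lists and comparisons were chosen with earlier results of these data known. Distances to shared regions and to regions with a yw peak, and the counts of yw against Osa-GFP heights, were added after seeing the data. Regions described singly are the 3 specific and the 1 shared region per gene with the best worse-of-both Osa-GFP rank (both where ranks tied), and other regions named were chosen after their values were seen. For each gene the 2 most alike genes were named, from windows that meet none of the 6.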

Additional observations from a re-analysis of the deposited data

How the results depend on the processing

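The 43 Osa-GFP-specific regions became 26 when peaks within 500 bp were merged and 72 when a yw peak had to be present in both control libraries to count, and leaving out 1 library gave 43 to 74, the last without yw replicate 2. The 40 shared regions numbered 15 under a threshold of 10 on −log10 q, 11 with that stricter control rule, and 10 to 46 with 1 library left out. The 76.7% of specific regions inside the spans became 91.7% with 5 kb flanks and, by construction, 100% with no flank, and was 76.7% to 80.9% with 1 library left out. The median summit distance of 39 bp was 34 to 56 bp under the other settings and 39 to 43.5 bp without 1 yw library. It has no value without an Osa-GFP library. Of the 42 values of these 4 results under alternatives, 33 stayed within the limits set and 9 moved. Of the counts per gene, 87 stayed within 1.5 times and 45 moved. The cause of changes other than by construction was not tested. No paired analysis was possible because the results are counts and positions of regions and come from no test. Depth limits the control: yw replicate 1 had 0.120 fragments per position, so its missing peaks bound little, and a peak of 4 fragments stands near the floor in the other libraries.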

Other observations

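Regions of a single Osa-GFP library added 40 sites to the 6 windows. They were 29.6% (22.6% to 37.8%, Wilson) of the 135 regions, beside 38.0% (37.0% to 38.9%) of the 9599 regions of the genome. Of the 40, 27 came from replicate 1 and 13 from replicate 2. The share from replicate 1 was 67.5% (52.0% to 79.9%), beside 62.2% (60.6% to 63.7%) of all 3644 such regions. A yw peak was held by 8 of the 40, 20.0% (10.5% to 34.8%), beside 13.9% (12.9% to 15.1%). At sbb they were split evenly, 6 from each replicate. At Tet all 9 came from replicate 1, and 5 of them held a peak of yw replicate 2. The tallest of those at Tet by Osa-GFP, at 2868840 to 2869453, had 12 summit fragments in Osa-GFP replicate 1 and 6 in yw replicate 2. No peak was called there in Osa-GFP replicate 2. At 2805786 to 2806196 the same libraries had 7 and 4. The yw replicate 2 peak was the taller at 2865221 to 2865941 (9 and 16), 2871391 to 2871664 (4 and 5) and 2873138 to 2873492 (5 and 9).

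Regions with yw peaks alone numbered 12 at the 6 genes, 8.89% of 135 regions (5.16% to 14.9%, Wilson), beside 27.2% (26.3% to 28.1%) of the 9599 regions of the genome. tara had 4, sbb 3, jing and Tet 2 each, corto 1 and brat none. The genes were chosen for Osa-GFP regions, so nothing is read from this share. Regions with a peak of all 4 libraries numbered 11, of which tara and jing held 4 each.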
